A study of Mus musculus with 12 samples.

Results

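The study sequenced polyadenylated RNA from B lymphocytes of mouse spleens, and this account follows the genes for NADPH-making dehydrogenases outside the pentose phosphate pathway together with the NAD kinases. The 7 members were chosen by symbol: Idh1, Idh2, Me1, Me2, Nnt, Nadk and Nadk2, all of which were among the 24982 genes listed. Of these, 3 encode cytosolic forms (Idh1, Me1, Nadk) and 4 encode mitochondrial forms (Idh2, Me2, Nnt, Nadk2). The 12 libraries came from mice 6 weeks old and fell into 3 groups of 4. The WT group was labelled C57BL/J6. The Eμ-Myc group carried a transgene that drives Myc from an immunoglobulin heavy-chain enhancer and so mainly in B-lineage cells. The Eμ-Myc; PRPS2 KO group, called the knockout group here, carried the same transgene and lacked PRPS2, a phosphoribosyl pyrophosphate synthetase that feeds nucleotide synthesis. Sex, littermate status and any pooling of mice were not given in the sources used here.

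NADPH carries the electrons that reduce oxidised glutathione and thioredoxin and that drive the synthesis of lipids, deoxynucleotides and proline. IDH1 in the cytosol and IDH2 in the mitochondrial matrix make it while they oxidise isocitrate, malic enzyme 1 makes it in the cytosol from malate, and NNT in the inner mitochondrial membrane makes it from NADH with the proton gradient. Malic enzyme 2 is mitochondrial and uses NAD more than NADP. The NAD kinases NADK, in the cytosol, and NADK2, in mitochondria, phosphorylate NAD to NADP and so set the pool that the dehydrogenases use.

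Promoter windows of 300 bases (250 before and 50 after an annotated start, RefSeq on GRCm38.p6) were read for 4 members, Idh1, Idh2, Me1 and Nadk, in 7 windows. None is given for Me2, Nnt or Nadk2. The windows were searched on both strands for CACGTG, the letters that MYC with MAX is known to bind, for the variant CACGCG, and for TGACNNNGC, the core of the element that NRF2 is known to bind. Over all 32851 windows of this length, 7.15% held CACGTG, 9.27% held CACGCG and 12.4% held TGACNNNGC. Shown are the window of Idh2, the member with the largest increase in Eμ-Myc, the Nadk window that held CACGTG, and the Me1 window that held TGACNNNGC, 5′ to 3′ on the gene's strand with matches in capitals. They lie at chr7:80115301-80115600 (minus strand), chr4:155563565-155563864 (plus strand) and chr9:86695865-86696164 (minus strand).
Idh2: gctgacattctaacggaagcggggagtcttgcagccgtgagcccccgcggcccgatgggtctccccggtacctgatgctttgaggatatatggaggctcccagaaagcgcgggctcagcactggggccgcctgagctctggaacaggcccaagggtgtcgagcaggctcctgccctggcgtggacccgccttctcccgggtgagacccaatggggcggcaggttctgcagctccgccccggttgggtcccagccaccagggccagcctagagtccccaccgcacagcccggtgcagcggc
Nadk: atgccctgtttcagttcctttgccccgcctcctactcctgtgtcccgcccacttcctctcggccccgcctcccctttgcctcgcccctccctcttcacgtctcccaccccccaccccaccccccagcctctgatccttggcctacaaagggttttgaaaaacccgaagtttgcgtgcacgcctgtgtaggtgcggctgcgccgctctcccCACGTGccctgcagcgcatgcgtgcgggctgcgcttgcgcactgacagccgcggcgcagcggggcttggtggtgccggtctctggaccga
Me1: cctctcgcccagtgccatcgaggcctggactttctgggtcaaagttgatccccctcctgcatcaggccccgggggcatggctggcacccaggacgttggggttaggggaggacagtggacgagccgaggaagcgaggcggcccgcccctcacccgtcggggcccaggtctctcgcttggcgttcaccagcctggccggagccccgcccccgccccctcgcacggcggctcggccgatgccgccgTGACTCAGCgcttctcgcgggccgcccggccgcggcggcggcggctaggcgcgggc
The Idh2 window held none of the 3 motifs. The Nadk match began at offset -40 and the Me1 match at offset -6 from the start base. The only other match among the 7 windows was a CACGCG of Idh1 at offset 42, in the window at chr1:65186430-65186729 (minus strand). These matches describe letters and not bound sites.

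The values were coverages per gene and are given here as scaled coverage, which divides each library by 1 factor. How the coverage was computed is not given in the sources used here. It is read below as a mean per base, and if it is not, levels and shares that set one gene against another also carry transcript length. Summed over genes, coverage lay between 1277305.5 and 1885768.9 in the 12 libraries, and the reads behind a value are unknown, so errors come from the spread between libraries alone. Prps2, the deleted gene, had a scaled coverage of 97.9, 139.5, 123 and 140.01 in WT libraries 1 to 4, of 246, 198.5, 253 and 287 in Eμ-Myc, and of 18.3, 17.0, 17.1 and 16.2 in the knockout group. Myc ran from 226 to 346 in WT, from 1559 to 2302 in Eμ-Myc and from 1099 to 3282 in the knockout group, where libraries 1 and 2 held 1099 and 1718 and libraries 3 and 4 held 3017 and 3282. The B cell list (6 genes, Cd79a, Cd79b, Ms4a1, Pax5 and Cd22 among them) was above 1 for every gene in every library, with a summed scaled coverage from 5817 to 11287. Markers of other cells were present in unequal amounts. The myeloid list (7 genes, all above 1 in every library) summed to between 8383 and 24720.0 in WT, 5784 and 16896 in Eμ-Myc and 1434 and 15571 in the knockout group. Its sums follow mostly S100a9 and S100a8, which had the highest means of the list, 7467 and 3051 in WT. The T cell list (6 of 7 genes listed in the files) summed to between 353 and 1887 in WT, 75.1 and 109.7 in Eμ-Myc, and 10.3 and 459 in the knockout group. Knockout libraries 3 and 4 stood apart from knockout libraries 1 and 2, with T cell sums of 10.8 and 10.3 against 436 and 459 and NK cell sums (5 genes) of 17.98 and 17.1 against 405 and 301.

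**Figure D1:**
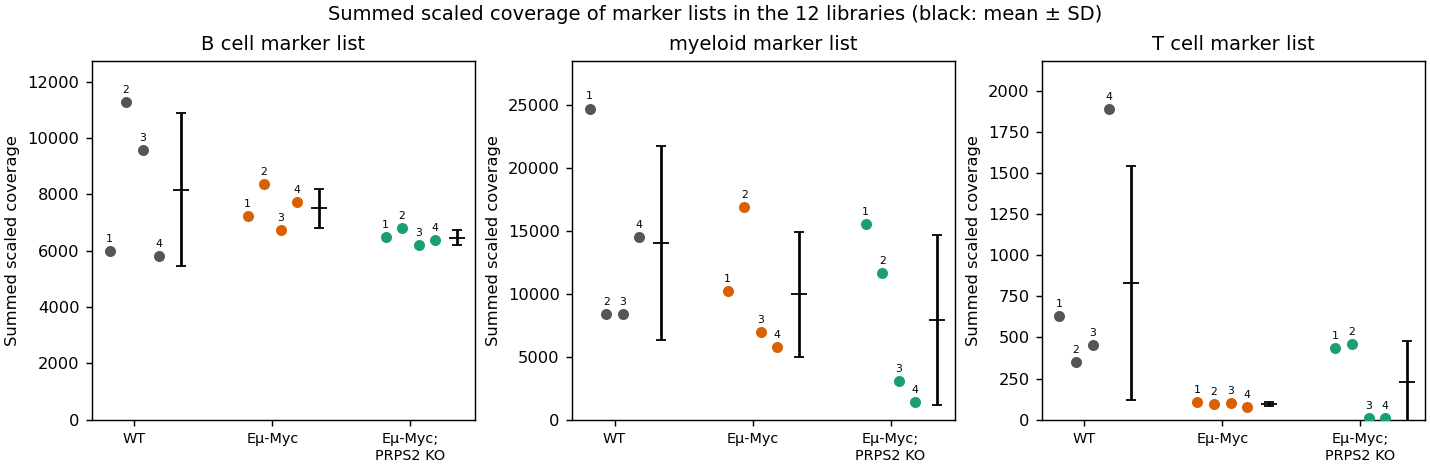
Summed scaled coverage (vertical axis) of the B cell, myeloid and T cell marker lists in the 4 libraries of each group; points are libraries with their numbers and black bars are the mean ± SD, cut at 0. The B cell sums lie within 5817 and 11287, while the myeloid sums run from 1434 to 24720.0 and the T cell sums fall to 10.3 in knockout library 4.

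Eμ-Myc was compared with WT to see what the Myc transgene changes in splenic B cells. All 4 mitochondrial members were higher in Eμ-Myc and passed the test, and neither of the 2 cytosolic members that could be tested did. Idh2 and Nnt rose 2.65-fold and 2.58-fold, Nadk2 rose 1.66-fold and Me2 1.30-fold. Me1 was too low to test. Called means a Benjamini-Hochberg adjusted p under 0.05 in limma over all genes. In this comparison 55.1% of the 12723 genes tested were called, 30.4% higher and 24.7% lower, so that 55.2% of calls were higher; with total coverage scaling 42% were. All 4 mitochondrial members had every Eμ-Myc library above every WT library, as did 28.7% of genes. The median log2 fold change was 1.05 over the 4 mitochondrial members and -0.01 over all genes tested.

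Idh2, on chromosome 7 (chr7:80094846-80115392, GRCm38), had a scaled coverage of 56.3, 57.3, 53.2 and 63.4 in WT libraries 1 to 4. The 4 Eμ-Myc libraries held 137, 165, 153 and 158. Every Eμ-Myc library lay above every WT library. The means were 57.6 ± 4.28 and 153 ± 11.9 (SD, n = 4 each), a log2 fold change of 1.40 (limma, SE 0.10, adjusted p 5.74e-06). Nnt, on chromosome 13 (chr13:119335528-119408952), held 22.0, 22.3, 20.5 and 25.8 in WT and 57.2, 50.2, 59.4 and 71.2 in Eμ-Myc. The lowest Eμ-Myc value was again clear of the highest WT value. Its log2 fold change was 1.37 (limma, SE 0.13, adjusted p 3.17e-05), from 22.7 ± 2.25 to 59.5 ± 8.72 (SD, n = 4 each). As background, the C57BL/6J strain is known to carry a deletion inside Nnt that removes the active protein. The labels do not give the strain of the transgenic mice. For Nnt, strain and transgene thus cannot be told apart in either comparison with WT. The values cover the whole gene, so they do not show which exons carried the coverage or whether active protein could be made.

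Nadk2 (chr15:9071260-9110891) held 64.2, 50.4, 50.8 and 52.6 in WT and 93.3, 74.9, 98.0 and 97.7 in Eμ-Myc. WT library 1 was the highest of its group and still lay below the lowest Eμ-Myc library. The log2 fold change was 0.73 (limma, SE 0.12, adjusted p 0.000953). Me2 varied least of the members in WT, at 63.2, 63.1, 63.7 and 62.2 in WT and 79.8, 75.9, 82.7 and 92.1 in Eμ-Myc. The WT values varied by a coefficient of variation of 1.03%, the smallest of any member in any group. Its log2 fold change of 0.38 (limma, SE 0.09, adjusted p 0.00579) was the smallest of the called members. The call of Me2 was lost with scaling by total coverage, at 0.20 with an adjusted p of 0.126, where the median of all genes moved to -0.19, and when all 12 libraries shared 1 fit (adjusted p 0.056).

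Among the cytosolic members, Idh1 (chr1:65158616-65186500) held 152, 107, 106 and 57.3 in WT and 77.5, 85.5, 67.8 and 44.6 in Eμ-Myc. WT library 4 lay inside the Eμ-Myc range and the other WT libraries above it. The log2 fold change of -0.57 (limma, SE 0.30, adjusted p 0.134) did not pass. Without WT library 4 it was -0.83 with an adjusted p of 0.0156, and without WT library 1 it was -0.37 with an adjusted p of 0.294. With all libraries, Idh1 was called lower with the replicate block (limma adjusted p 0.0113) and with library quality weights. Nadk (chr4:155562378-155591001) held 775, 384, 380.5 and 355 in WT and 379, 370.3, 312 and 287 in Eμ-Myc. WT library 1 stood far above the others, WT libraries 2 and 3 lay just above the highest Eμ-Myc library, and WT library 4 lay inside the Eμ-Myc range. The log2 fold change was -0.42 (limma, SE 0.24, adjusted p 0.165) over all libraries and -0.15 (adjusted p 0.326) without WT library 1. With total coverage scaling Nadk passed, at -0.60 with an adjusted p of 0.0475, and it also passed with library quality weights.

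Within groups, the spread of Idh1 and Nadk went in part with the myeloid and NK cell lists. WT library 1, the highest WT library for both genes, had a myeloid sum of 24720.0 against 8396 and 8383 in WT libraries 2 and 3. In Eμ-Myc the myeloid sums of libraries 1 to 4 were 10212, 16896, 6964 and 5784 and the NK cell sums 153, 175, 83.9 and 71.3, and libraries 3 and 4 were also the 2 lowest for Idh1 and Nadk. WT library 4 did not follow this order, with the second highest myeloid sum (14546.5), the lowest Idh1 and Nadk of its group, and the highest NK cell (1037), T cell (1887) and erythroid (844) sums, against NK cell sums of 731, 264 and 296 in WT libraries 1 to 3. The part of these cells in the values of Idh1 and Nadk was not tested. In bulk samples such as these, fewer cells of a type and less RNA per cell cannot be told apart.

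Me1 (chr9:86581371-86695953), the cytosolic malic enzyme, was listed at 0 in Eμ-Myc library 2 and knockout library 2. In the other 10 libraries the deposited coverage lay between 0.1 and 0.4, where 0.1 is the smallest step of the files. It passed no filter on low values and is given no fold change. The mitochondrial NADP-using malic enzyme Me3, from the list of other NADPH suppliers, was at 0 or 0.1 in all 12 libraries, so Me2 was the one malic enzyme gene with coverage above 1.

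**Figure D2:**
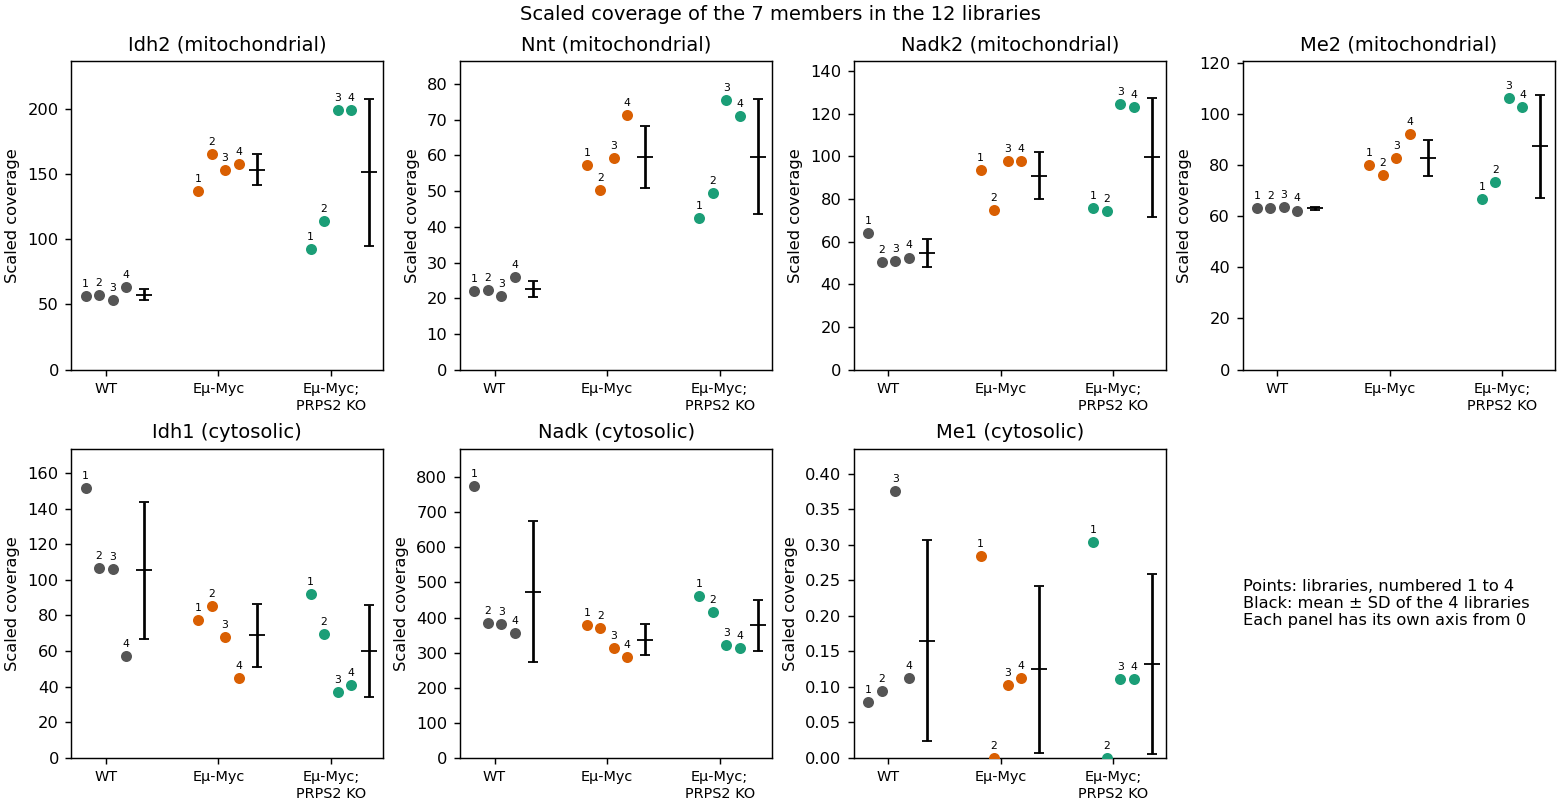
Scaled coverage (vertical axis, from 0, a separate scale in each panel) of the 7 members in the 4 libraries of each group; points are libraries with their numbers and black bars are the mean ± SD. The 4 mitochondrial members are higher in every Eμ-Myc library than in any WT library, Idh1 and Nadk overlap between the groups, and Me1 stays below 0.4.

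The balance of cytosolic and mitochondrial forms was compared within each library. The scaling factor cancels in the shares, while the log2 ratios, with 0.5 added to each scaled value, keep a small part of it. Idh2 made up 27.1%, 35.0%, 33.4% and 52.5% of the summed coverage of Idh2 and Idh1 in WT libraries 1 to 4. In Eμ-Myc it made up 63.9%, 65.9%, 69.3% and 78.0%, above every WT library. The isocitrate dehydrogenase with the higher coverage was thus the cytosolic one in 3 of 4 WT libraries and the mitochondrial one in 4 of 4 Eμ-Myc libraries. The log2 ratio of Idh2 to Idh1 was -0.79 ± 0.66 (SD, n = 4) in WT and 1.19 ± 0.44 (SD, n = 4) in Eμ-Myc, a difference of 1.97. The exact two-sided permutation test over libraries gave p = 0.0286, the smallest that 4 against 4 allows, and an adjusted p of 0.0857 over the 9 tests of 3 pairs in 3 comparisons, which did not pass. A ratio at this smallest p passes only if most of the 9 tests reach it too, and those of Me2 to Me1 are among them. Not passing thus says little about any 1 pair ratio, here or below.

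Nadk2 made up 7.65%, 11.6%, 11.8% and 12.9% of the summed coverage of the NAD kinases in WT and 19.7%, 16.8%, 23.9% and 25.4% in Eμ-Myc. Nadk thus kept the larger share in all 8 libraries while every Eμ-Myc library was above every WT library. The log2 ratio of Nadk2 to Nadk differed by 1.15 (exact permutation p = 0.0286, adjusted p 0.0857 over the 9 tests). The ratio of Me2 to Me1 rests on values of Me1 at the smallest step of the files and so has no meaning as a balance. Its difference was 0.47 (exact permutation p = 0.0857, adjusted p 0.154).

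**Figure D3:**
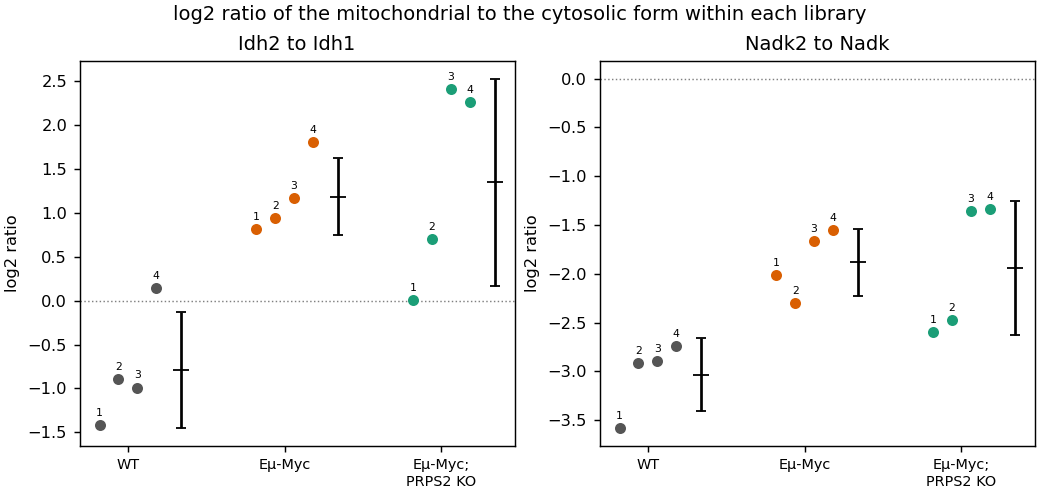
Log2 ratio of the mitochondrial to the cytosolic form (vertical axis) within each library, for Idh2 to Idh1 and Nadk2 to Nadk; points are libraries with their numbers, black bars are the mean ± SD and the dotted line marks equal coverage. Both ratios are higher in all 4 Eμ-Myc libraries than in the WT libraries, and the knockout group spans from 0.00 to 2.42 for Idh2 to Idh1.

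The knockout group was set against Eμ-Myc to ask whether loss of PRPS2 in Eμ-Myc B cells touches these genes. None of the 6 members tested passed in limma, in either direction, and none had an unadjusted p under 0.05. Prps2 was the single gene called of 12551, which is 0.00797% of them, and 121 genes (0.964%) had an unadjusted p under 0.05. All 6 members overlapped between the groups, where 1.53% of genes did not. The estimates were near 0 with wide intervals. The log2 fold change was -0.10 for Idh2 (95% interval -0.70 to 0.51), -0.02 for Nnt (-0.51 to 0.46), 0.09 for Nadk2 (-0.39 to 0.58) and 0.05 for Me2 (-0.35 to 0.45). Those of the cytosolic members were -0.26 for Idh1 (-1.02 to 0.50) and 0.15 for Nadk (-0.24 to 0.55). With intervals of this width the groups are not shown to be alike.

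The 4 knockout libraries fell far apart. Idh2 held 92.6, 114, 199.1 and 199.1 in knockout libraries 1 to 4, so that libraries 1 and 2 lay below every Eμ-Myc library and libraries 3 and 4 above every one. Nadk2, at 76.0, 74.5, 124 and 123, was also higher in libraries 3 and 4 than in any Eμ-Myc library. Me2 held 66.6, 73.4, 106 and 103, with libraries 1 and 2 below and libraries 3 and 4 above the whole Eμ-Myc range. Nnt held 42.5, 49.6, 75.6 and 71.0, with libraries 1 and 2 below every Eμ-Myc library and library 3 above every one. The cytosolic members ran the other way within the group. Idh1 held 92.3, 69.5, 36.9 and 41.0, and Nadk held 463, 416, 320.3 and 313. Knockout libraries 3 and 4 thus had the highest mitochondrial and the lowest cytosolic values of their group for all 6 tested members. They were also the libraries with the lowest myeloid sums, 3085 and 1434 against 15571 and 11617, and the lowest T and NK cell sums given above. The plasma cell sums (4 genes) were lowest there too, at 105.8 and 106.1 against 379 and 458, and Myc was highest. Which of these the members' values go with was not tested.

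The signs of 4 small estimates turned when 1 library was left out. Without knockout library 1 Idh2 was 0.11 and Nnt 0.12, without knockout library 2 they were 0.01 and 0.05, and without Eμ-Myc library 4 Nnt was 0.06. Without knockout library 3 Me2 was -0.05 and Nadk2 -0.03, and without knockout library 4 they were -0.04 and -0.02. Weights for library quality, which gave knockout libraries 1 to 4 the weights 0.0817, 0.129, 3.20 and 7.76, changed the outcome as a whole. With them 59.4% of all genes (7459) and 4 of the 6 members were called: Idh2 at 0.37 (limma adjusted p 0.00570), Nadk2 at 0.34 (adjusted p 0.00463), Me2 at 0.29 (adjusted p 0.00719) and Idh1 at -0.63 (adjusted p 0.00943). In that fit knockout libraries 3 and 4 carried most of the weight of their group.

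Because the marker sums split the knockout group 2 and 2, the comparison was also run without each of these pairs, a choice made after the data were seen. Without knockout libraries 1 and 2, 28.7% of all genes (3495) and 3 of the 6 members were called in limma: Idh2 was higher by 0.38 (adjusted p 0.0362), Nadk2 higher by 0.45 (adjusted p 0.0408) and Idh1 lower, at -0.78 (adjusted p 0.0487). Me2, at 0.34 (adjusted p 0.0531), Nnt, at 0.31 (adjusted p 0.143), and Nadk, at -0.08 (adjusted p 0.681), did not pass. Without knockout libraries 3 and 4, 4.21% of all genes (524) and 0 members were called in limma, and the estimates had the opposite sign for all 6 members, with Idh2 at -0.57 (adjusted p 0.0552), Nnt at -0.36, Nadk2 at -0.26, Me2 at -0.24, Idh1 at 0.26 and Nadk at 0.39. These fits set 2 knockout libraries against all 4 Eμ-Myc libraries. The members' own values had split the same way before the pairs were chosen. The calls without either pair, here and below, thus describe that split and do not test the knockout. Between libraries of the same number, Nadk was higher in the knockout for all 4 numbers, with log2 differences of 0.29, 0.17, 0.04 and 0.12. Its change of sign thus does not hold within these numbers, which were treated as pairs on the values alone. How many of all genes kept 1 sign in all 4 numbers was not counted. That of Idh2 was -0.56, -0.53, 0.38 and 0.33 for numbers 1 to 4, and Nadk2 and Me2 were likewise lower for numbers 1 and 2 and higher for 3 and 4. Idh1 was higher for number 1 alone, at 0.25, and Nnt for number 3 alone, at 0.35. With the number as a block no member was called. The labels name no difference between knockout libraries 1 and 2 and libraries 3 and 4.

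The pair ratios did not separate the knockout group from Eμ-Myc. Idh2 made up 50.1%, 62.1%, 84.4% and 82.9% of the pair in knockout libraries 1 to 4, and Nadk2 14.1%, 15.2%, 28.0% and 28.2%. The differences in log2 ratio were 0.16 for Idh2 to Idh1 (exact permutation p = 0.800, adjusted p 0.914) and -0.06 for Nadk2 to Nadk (exact permutation p = 0.914, adjusted p 0.914). For both ratios, libraries 1 and 2 lay below and libraries 3 and 4 above all Eμ-Myc libraries.

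The knockout group was then set against WT, to ask what the transgene and the loss of PRPS2 do together. It shares its WT libraries with the first comparison and its knockout libraries with the second. Of the 6 members tested 3 were called, all mitochondrial and all higher, where 29.3% of 12692 genes were called, 19.7% higher and 9.6% lower. Nnt had a log2 fold change of 1.34 (limma, SE 0.20, adjusted p 0.0100), Idh2 of 1.31 (SE 0.26, adjusted p 0.0169) and Nadk2 of 0.83 (SE 0.21, adjusted p 0.0295). Me2, at 0.44 (SE 0.17, adjusted p 0.0762), did not pass, although each of its 4 knockout libraries was above each WT library. The same held for Nnt, Idh2 and Nadk2, and over all genes the groups lay apart with the knockout higher for 22.2%. Idh1 (-0.83, SE 0.37, adjusted p 0.109) and Nadk (-0.26, SE 0.27, adjusted p 0.434) did not pass and overlapped WT.

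These calls depended on single libraries, as did the count over all genes, which was 3716 and ran from 600 without WT library 3 to 6633 without knockout library 1. Nnt was called whichever library was left out. Idh2 was lost without WT library 1, 2 or 3, at adjusted p from 0.0502 to 0.0579, and Nadk2 without any 1 WT library or without knockout library 3 or 4, at adjusted p from 0.0577 to 0.0841. The call of Nadk2 was also lost with the replicate block. Without knockout library 1 the count of members rose to 5, with Me2 at 0.55 (adjusted p 0.0206) and Idh1 at -1.07 (adjusted p 0.0378), and without WT library 1, 2 or 3 it was 1. Without knockout libraries 1 and 2 together, 70.1% of all genes (8617) and 5 of the 6 members were called in limma, with Idh2 at 1.78, Nnt at 1.68, Nadk2 at 1.18, Me2 at 0.72 (adjusted p 0.00031) and Idh1 at -1.35 (adjusted p 0.0125). Without knockout libraries 3 and 4 together, 10.6% of all genes (1323) and 2 members were called, Nnt at 1.01 (adjusted p 0.0103) and Idh2 at 0.83 (adjusted p 0.0130), and Nadk2, at 0.47, did not pass (adjusted p 0.0779). The ratio of Nadk2 to Nadk was 1.09 higher in log2 than in WT with no overlap (exact permutation p = 0.0286, adjusted p 0.0857). The ratio of Idh2 to Idh1 was 2.14 higher and overlapped (exact permutation p = 0.0571, adjusted p 0.129), since knockout library 1, at 50.1% Idh2, lay below WT library 4, at 52.5%.

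**Figure D4:**
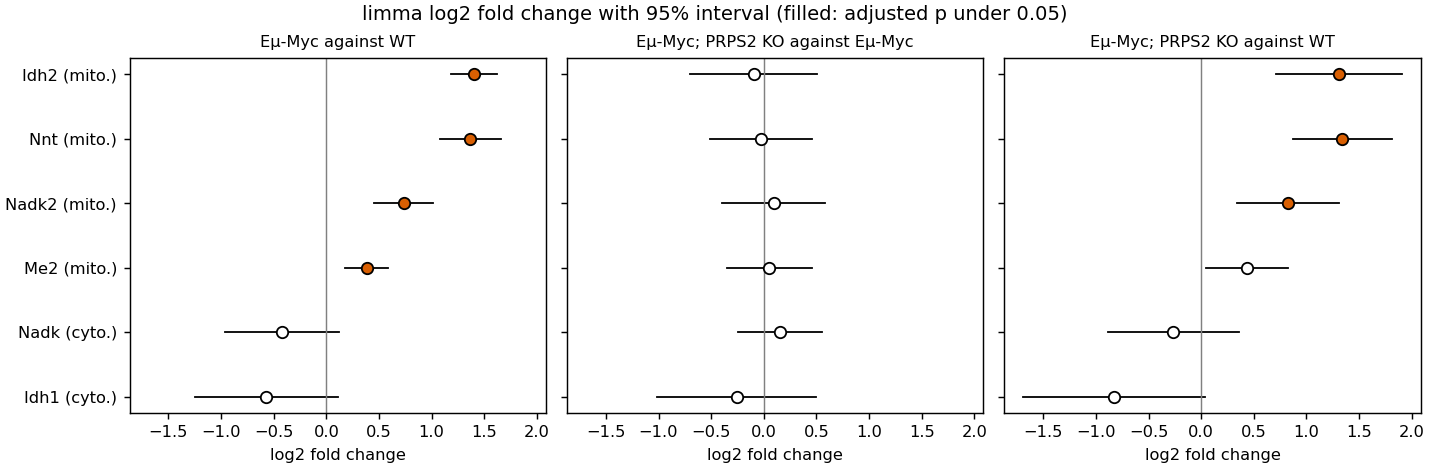
Log2 fold change (horizontal axis) from limma with its 95% interval for the 6 members tested in the 3 comparisons; filled points have an adjusted p under 0.05. The 4 mitochondrial members are filled in Eμ-Myc against WT, 3 of them in the knockout group against WT, and none in the knockout group against Eμ-Myc.

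Other genes were taken from 3 lists, named for enzymes that can supply NADPH, that can use it, or that share its substrates. Whether each listed enzyme worked with NADP or with NAD in these cells was not measured. Of 11 other suppliers 8 were tested and 3 were called in Eμ-Myc against WT, all higher, where 30.4% of all genes were called higher, with a list median log2 fold change of 0.25 against -0.01 over all genes. They were the folate enzymes Mthfd1 (1.96, SE 0.12, limma adjusted p 3.52e-06), which is cytosolic, Mthfd2 (1.27, SE 0.11, adjusted p 1.96e-05) and Mthfd2l (0.58, SE 0.18, adjusted p 0.0213), which are mitochondrial. Mthfd1 rose from 34.7 ± 2.67 to 137 ± 19.6 and Mthfd2 from 36.9 ± 4.61 to 88.9 ± 4.27 (SD, n = 4 each). The estimate for Mthfd1, a cytosolic form, was above that of each of the 6 members tested. Mthfd2l, at a mean of 2.63 in Eμ-Myc, lost its call with total coverage scaling (adjusted p 0.0774) and without WT library 2 or Eμ-Myc library 3 or 4 (adjusted p from 0.0516 to 0.0716). The pentose phosphate dehydrogenases did not pass, with -0.06 (SE 0.35, adjusted p 0.893) for G6pdx and 0.13 (SE 0.29, adjusted p 0.714) for Pgd, nor did H6pd at -0.26 (SE 0.18, adjusted p 0.236). WT library 1 decided the values of G6pdx and Pgd. G6pdx had a scaled coverage of 266 there against 80.1, 83.4 and 93.0 in WT libraries 2 to 4 and 112.7, 123.1, 103.1 and 97.4 in Eμ-Myc. Pgd held 765 there against 315, 296 and 318, and 419, 525, 399.7 and 374 in Eμ-Myc. Without WT library 1 both were called higher in Eμ-Myc, G6pdx at 0.35 (limma adjusted p 0.0326) and Pgd at 0.46 (adjusted p 0.0179), while total coverage scaling with all libraries put Pgd at -0.05. This library also had the highest myeloid sum of the 12, and the part of those cells in these values was not tested.

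Among 17 NADPH users, all tested, 8 were called higher and 1 lower in Eμ-Myc, with a list median of 0.46; over all genes 55.1% were called, 30.4% higher and 24.7% lower. Among those higher were Pycr1 (2.63, SE 0.25, limma adjusted p 2.86e-05), which makes proline in mitochondria, and Sqle (1.05, SE 0.11, adjusted p 5.26e-05), which oxidises squalene on the way to cholesterol. Pycr1 was low in WT, with a scaled coverage from 0.375 to 1.18 against 6.16 to 9.01 in Eμ-Myc, and the size of its change depends on the pseudocount, at 3.14 with 0.1 and 1.75 with 2. The one called lower was Cybb (-1.23, SE 0.28, adjusted p 0.00484), the membrane subunit of the phagocyte NADPH oxidase, named after its value was seen, and not called when all 12 libraries shared 1 fit (adjusted p 0.209). Cybb is expressed in myeloid cells as well as B cells, and the myeloid sums given above differ between libraries; their part in this value was not tested.

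Of 20 substrate neighbours 19 were tested, and 12 were called higher and 1 lower in Eμ-Myc, beside 30.4% and 24.7% of all genes, with a list median of 0.69. The NAD-dependent isocitrate dehydrogenase, which shares its substrate with IDH2 in the matrix but makes NADH, rose with it: Idh3a by 1.33 (limma, SE 0.09, adjusted p 5.87e-06), Idh3b by 0.74 and Idh3g by 0.72. The transaminases Got1 (1.43, SE 0.10, adjusted p 5.15e-06) and Got2 (1.08, SE 0.10, adjusted p 2.34e-05) also rose. The one called lower was the mitochondrial oxoglutarate carrier Slc25a11, at -0.45 (SE 0.13, adjusted p 0.0152).

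When the knockout group was compared with Eμ-Myc, none of the 8, 17 and 19 genes tested in the 3 lists was called by limma, and none had an unadjusted p under 0.05 with all 4 knockout libraries. The suppliers with the smallest p were H6pd (0.19), G6pdx (0.12), Aldh1l1 (-0.50) and Mthfd2l (-0.14), the users Blvrb (-0.34), Nqo1 (-0.37), Dhcr7 (0.18) and Fasn (0.35), and the neighbours Slc25a11 (-0.26), Nmnat3 (0.24), Ogdh (0.15) and Nampt (0.14), and no adjusted p in this limma fit was under 0.05. With library quality weights, which lean on knockout libraries 3 and 4, 8 of these 12 were called, as were 59.4% of all genes: Fasn (0.68), Nmnat3 (0.49), Nampt (0.32), Dhcr7 (0.26) and Ogdh (0.19) higher, and Aldh1l1 (-0.98), Nqo1 (-0.43) and Slc25a11 (-0.40) lower, at adjusted p from 0.000977 to 0.0215. Without knockout libraries 1 and 2 together, Fasn (0.79, adjusted p 0.00984), Nmnat3 (0.54, adjusted p 0.0122), Nampt (0.36, adjusted p 0.0418) and Slc25a11 (-0.51, adjusted p 0.0473) were called among these 12, where 28.7% of all genes were, and without libraries 3 and 4 none of them was. The 12 were named for their small p in this comparison, so these counts are a description. Between libraries of the same number, a pairing made on the values alone and uncertain, H6pd was higher in the knockout for all 4 numbers and Nqo1 lower for all 4. With only 4 numbers, like signs in all of them can easily arise by chance. How many of all genes showed this was not counted, so it does not set H6pd and Nqo1 apart. The rest of the 12 went both ways, and with the number as a block neither H6pd nor Nqo1 was called.

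Against WT the knockout group had 2 of 8 suppliers, 6 of 17 users and 11 of 19 neighbours called higher, and no supplier, no user and 1 neighbour called lower, where 19.7% of all genes were called higher and 9.6% lower. Mthfd1 (2.06, SE 0.35, limma adjusted p 0.0109) and Mthfd2 (1.26, SE 0.28, adjusted p 0.0213) were the suppliers, while Mthfd2l (0.44, adjusted p 0.161) and Pgd (0.18, adjusted p 0.622) did not pass. Pgd was called without WT library 1 (0.51, adjusted p 0.0474) and with quality weights (0.41, adjusted p 0.046), and Mthfd2l with weights (0.76, adjusted p 0.00127) and without knockout libraries 1 and 2 together (0.71, adjusted p 0.0264). Users called higher included Pycr1 (2.58, adjusted p 0.00991, and from 1.72 to 3.08 with the other pseudocounts) and Fasn (1.53, adjusted p 0.0114), which makes fatty acids. The neighbours called higher with the smallest p were Got1 (1.40, adjusted p 0.0119), Got2 (1.14, adjusted p 0.0217) and Idh3a (1.35, adjusted p 0.0219). Slc25a11 (-0.71, SE 0.16, adjusted p 0.0241) was again the neighbour called lower. Several of these calls rested on single libraries. Those of Mthfd2, Got2 and Idh3a were lost without any 1 WT library and without knockout library 3 or 4, at adjusted p from 0.0504 to 0.0677, and that of Got2 also with the replicate block (adjusted p 0.0503). The call of Slc25a11 was lost without WT library 1, 2 or 3 or knockout library 3 or 4, at adjusted p from 0.0627 to 0.0716, and without knockout libraries 3 and 4 together (-0.45, adjusted p 0.056). Mthfd1, Pycr1, Fasn and Got1 were called in every alternative that could be run for them.

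**Figure D5:**
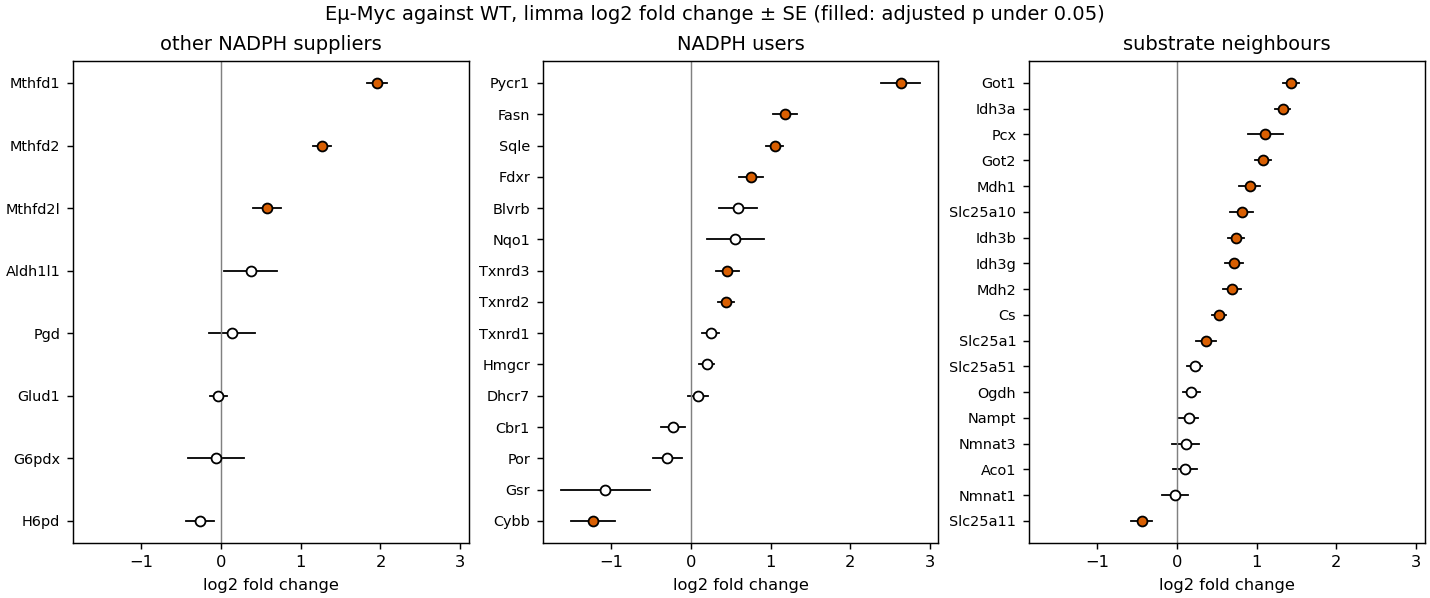
Log2 fold change (horizontal axis) in Eμ-Myc against WT from limma, ± SE, for genes of the 3 other lists that could be tested; filled points have an adjusted p under 0.05. Mthfd1, Mthfd2 and Mthfd2l are filled among the suppliers, while G6pdx, Pgd and H6pd are not; G6pdx and Pgd pass without WT library 1.

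Read as a mean per base, the coverages order the members by level within each group. Nadk was the highest member in all 3 groups, at a mean of 474, 337 and 378 in WT, Eμ-Myc and the knockout group, and did not overlap the next member in any of them. Idh1 was second in WT, at 105, with a range that overlapped that of Me2 (63.1). Me2, Idh2 (57.6) and Nadk2 (54.5) overlapped their neighbours in WT, and Nnt (22.7) lay below them without overlap. In Eμ-Myc Idh2 was second, at 153, clear of Nadk (337) above and Nadk2 (91.0) below. Nadk2, Me2 (82.6), Idh1 (68.8) and Nnt (59.5) then followed, each overlapping the next. In the knockout group the order was the same and each range from Idh2 (151) down to Nnt (59.7) overlapped the next.

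The genes whose profile over the 12 libraries lay nearest to each member were found by the root mean square difference of log2 values centred on each gene's mean, among the 9572 genes whose mean over all libraries was 8 or more. Near to Idh1 were Dram2 (0.17) and Ly96 (0.17), the partner of Toll-like receptor 4. Nearest to Nadk were Mfsd14b (0.08), Sec14l1 (0.09) and Klhl2 (0.11). Idh2 lay nearest to Kars (0.05), the lysyl-tRNA synthetase, Trim28 (0.05) and Strap (0.06). Me2 lay nearest to Sdha (0.05), a succinate dehydrogenase subunit, Hs2st1 (0.05) and Nploc4 (0.07). Nnt lay nearest to Fam53b (0.09), Aldh18a1 (0.12), a mitochondrial proline-synthesis enzyme that uses NADPH, and Eif2a (0.12). Nadk2 lay nearest to Smim13 (0.07), Api5 (0.09) and Hnrnpa2b1 (0.09). Idh1 had the most distant nearest genes of the 6 members.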

How the data were processed

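Splenic B lymphocyte RNA was measured in 12 libraries as poly(A) RNA with a strand-keeping kit, per the labels' protocols. The authors deposited 1 file per library with a coverage signal per gene, to 1 decimal; 91.6% of values above 0 were not whole numbers. The submitters' processing notes name mm10, DESeq and R 4.3.3; the aligner and counting step are not given in the sources used here, and read depth is unknown.

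Libraries were scaled by unweighted trimmed means of log ratios (30% of ratios and 5% of means trimmed). limma 3.58.1 in R 4.3.3 (trended prior, robust empirical Bayes, two-sided) was fitted to log2(scaled coverage + 0.5) of the 8 libraries compared, for genes at 1 or more in at least 4 of them; such fold changes are understated for low genes. Pair ratios were tested by exact permutation over 70 arrangements. Tables were made with pandas 2.3.3, numpy 2.4.6 and scipy 1.17.1 in Python 3.11.15, and figures with matplotlib 3.10.9. The method was tested on simulated data; for the knockout group against Eμ-Myc, the simulated share of false calls was above the 0.05 aimed at. Members and lists were chosen with earlier results of these data known. All members, Prps2 and Myc, the 4 genes of each list with the smallest p per comparison and the 3 nearest genes of each member were named by rule; Cybb, Idh3b, Idh3g, G6pdx and Pgd were added after their values were seen. Some genes that the rule names are not reported here or drawn, and stay in the counts.

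Labels number the replicates 1 to 4. In the knockout group and Eμ-Myc, departures from the group mean correlated at 0.638, 0.187, 0.243 and 0.596 between libraries of the same number. Those numbers were treated as pairs, on the values alone, since all 4 correlations were over 0.1. Only 2 of the 4 knockout libraries correlated best with the Eμ-Myc library of their own number, so the pairing is uncertain. In the comparisons with WT not all correlations were over 0.1. Alternatives were other scalings, pseudocounts of 0.1 and 2, other filters, 1 fit of all 12 libraries, a replicate block, library quality weights and leaving out each library; leaving out knockout libraries 1 and 2, or 3 and 4, together was added after the data were seen. The labels call the libraries biological replicates but do not say whether each is a separate mouse, so p-values measure only the spread between these libraries.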

Additional observations from a re-analysis of the deposited data

Results flagged for a closer look

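The 7 members, Prps2, Myc, G6pdx, Pgd and the 3 pair ratios were checked for a library apart from the other 3 of its group by Dixon's ratio (the gap to the nearest library over the group's range, at the 95% critical value), in 42 sets, of which chance flags about 1 in 20. Nadk in WT library 1 was apart, at a scaled coverage of 775, with 0.932 of the group's range between it and the next library. Nadk2 in the same library, at 64.2, was apart as well (0.846), as were G6pdx, at 266 (0.93), and Pgd, at 765 (0.954). G6pdx and Pgd were added to this check after their values were seen. Me1 in WT library 3, at 0.377, was apart (0.888), at a level near the smallest step of the files.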

How the results depend on the processing

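In Eμ-Myc against WT, Idh2, Nnt and Nadk2 were called in all 17 alternatives, with adjusted p in limma of at most 0.00124, 0.000493 and 0.0121; Idh1 was also called with the replicate block (adjusted p 0.0113) and with quality weights (-0.71, adjusted p 0.0167), and Nadk with weights (-0.37, adjusted p 0.0484). Without 1 library G6pdx ran from -0.23 to 0.35, and it was 0.15 with weights; Pgd was -0.05 with total coverage scaling. Replicate numbers do not pair libraries in the comparisons with WT; against WT the block left 1863 genes called in the knockout group and took Nadk2 to an adjusted p of 0.0576, and against Eμ-Myc, where numbers were treated as pairs, it left 1 gene and 0 members called.

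In the knockout group against Eμ-Myc, quality weights gave 7459 genes and 4 members and turned Idh2 (0.37), Nnt (0.22) and Mthfd2l (0.09); total coverage scaling put Nnt at 0.00, and unscaled coverage put the Me2 to Me1 ratio at -0.04. Leaving out 1 library at a time gave -0.25 to 0.11 for Idh2, -0.15 to 0.12 for Nnt, -0.05 to 0.17 for Me2, -0.03 to 0.22 for Nadk2 and -0.09 to 0.44 for Myc. Without knockout libraries 1 and 2 together there were 3495 genes and 3 members called, and Idh2 (0.38), Nnt (0.31), Nadk (-0.08) and Mthfd2l (0.14) changed sign; without 3 and 4 there were 524 genes, and Idh1 (0.26), Me2 (-0.24), Nadk2 (-0.26), Myc (-0.46), Fasn (-0.08), Nmnat3 (-0.06), Nampt (-0.07) and Aldh1l1 (0.00) did. The Idh2 to Idh1 difference was 1.16 without the first pair and -0.83 without the second, and that of Nadk2 to Nadk 0.53 and -0.65.

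In the knockout group against WT, 5975 genes were called with all 12 libraries in one fit, 10505 genes and 6 members with weights, 8617 genes and 5 members without knockout libraries 1 and 2, and 1323 genes without 3 and 4. Without 1 library, 600 to 6633 genes and 1 to 5 members were called. The Idh2 to Idh1 difference was 3.13 and 1.15 without the first and the second pair, and that of Nadk2 to Nadk 1.68 and 0.50. The causes were not tested. Depth is unknown, 4 libraries per group limit every interval, and whole-gene coverage shows no exon or isoform.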
